A study of Mus musculus with 4 samples.

Results

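Transcripts of 35 genes of glucose use and glycogen turnover were compared between the quadriceps of WT and Mef2dα2 Eko mice. The genes were taken by symbol from the deposited count table, which has 51826 rows, and they cover glucose uptake, the steps of glycolysis after the hexokinase reaction, lactate, and the building and breakdown of glycogen. RNA came from 4 sedentary male mice of about 20 weeks of age, of which 2 were WT (Mef2dα2 wt/wt) and 2 were Mef2dα2 Eko (Mef2dα2 e-/e-, called Eko here), and each mouse gave 1 library of polyA RNA. The Eko mice are homozygous for a CRISPR-Cas9 deletion of the muscle-specific α2 exon of Mef2d, a transcription factor gene. The deletion is in the germline and so is carried by every tissue, the mice are on the C57BL6/J background, and the study used more than 1 founder line without stating which line was sequenced. The WT mice were littermates with the intact exon.

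Skeletal muscle takes up glucose mainly through the transporter GLUT4, stores it as glycogen, and can break both down to pyruvate and lactate. Fast fibres, which make up most of the mouse quadriceps, hold large amounts of the glycolytic enzymes and of glycogen phosphorylase, and many steps have a muscle form of the enzyme beside forms used in other tissues. MEF2 proteins bind an AT-rich sequence in the control regions of many muscle genes, the gene of GLUT4 among them. The comparison asks whether the transcripts of this pathway differed when MEF2D was made without its muscle-specific exon. The study found that Eko gastrocnemius and soleus included the alternate α1 exon in its place. It also found similar MEF2D protein levels in the tibialis anterior and soleus of both genotypes.

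The total expected count per library lay between 72626757 and 85176059, and the totals of the genotypes overlapped. WT replicate 1 stood apart from the other libraries, with a chi-square per degree of freedom of 130 to 235 against each of them and of 161 against the other WT mouse, compared with 38.7 to 45.9 among the other 3 libraries. Levels are CPM values, that is, counts relative to the library total after TMM scaling, and a mean carries the SD of its 2 mice. A log2 fold change sets Eko over WT and comes from the quasi-likelihood test in edgeR, run on the 16120 genes left by the filter on low counts, with every p adjusted over all of these genes by Benjamini-Hochberg. With 2 mice a side, no two-sided exact permutation p can be smaller than 0.333, so each call rests on the spread that edgeR shares among genes. The smallest level the libraries can show, taken as 3 counts, was 0.0348 to 0.0419 CPM, which covers counting error only.

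All 35 genes passed the filter, and none of them passed the adjusted threshold of 0.05 with edgeR, which 67 of all 16120 genes did (0.416%). DESeq2 called 3 of the 35 and 2.02% of all genes. At an unadjusted p below 0.05 there were 7 of the 35 genes (20.0%), compared with 11.6% of all genes tested. Of these 7, Galm, Gapdh, Pgk1, Gbe1 and Pkm had lower levels in Eko mice, where the background in that direction was 6.41%, and Ppp1r3a and Pfkfb3 had higher levels, where it was 5.15%. The log2 fold change of 28 of the 35 genes was smaller than 0.25 in either direction.

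Most of the 35 genes had slightly lower levels in Eko mice. The fitted log2 fold change was negative for 26 of the 35 genes (74.3%), as it was for 51.3% of all genes tested. Both Eko mice were below both WT mice for 18 genes (51.4%, background 23.0%) and above both for 3 genes (8.57%, background 20.8%), and the genotypes overlapped for 14 genes. Among all genes tested, 43.8% had genotypes that did not overlap. The median log2 fold change was -0.11, beside -0.01 over all genes tested. Taken per mouse, the median log2 difference from the WT mean was 0.03 in WT replicate 1, -0.03 in WT replicate 2, -0.10 in Eko replicate 1 and -0.11 in Eko replicate 2. The median was -0.07 after each library's trend with GC content was removed. It was also -0.07 without WT replicate 1, the library that stood apart. Without that library 26 of the 35 genes still had a negative log2 fold change (49.9% of all genes), 6 had an unadjusted p below 0.05 (9.53% of all genes), and none was called. In that case both Eko mice were below the remaining WT mouse for 21 genes (background 36.7%) and above it for 4 (background 34.2%), a count added after the data were seen.

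**Figure D1:**
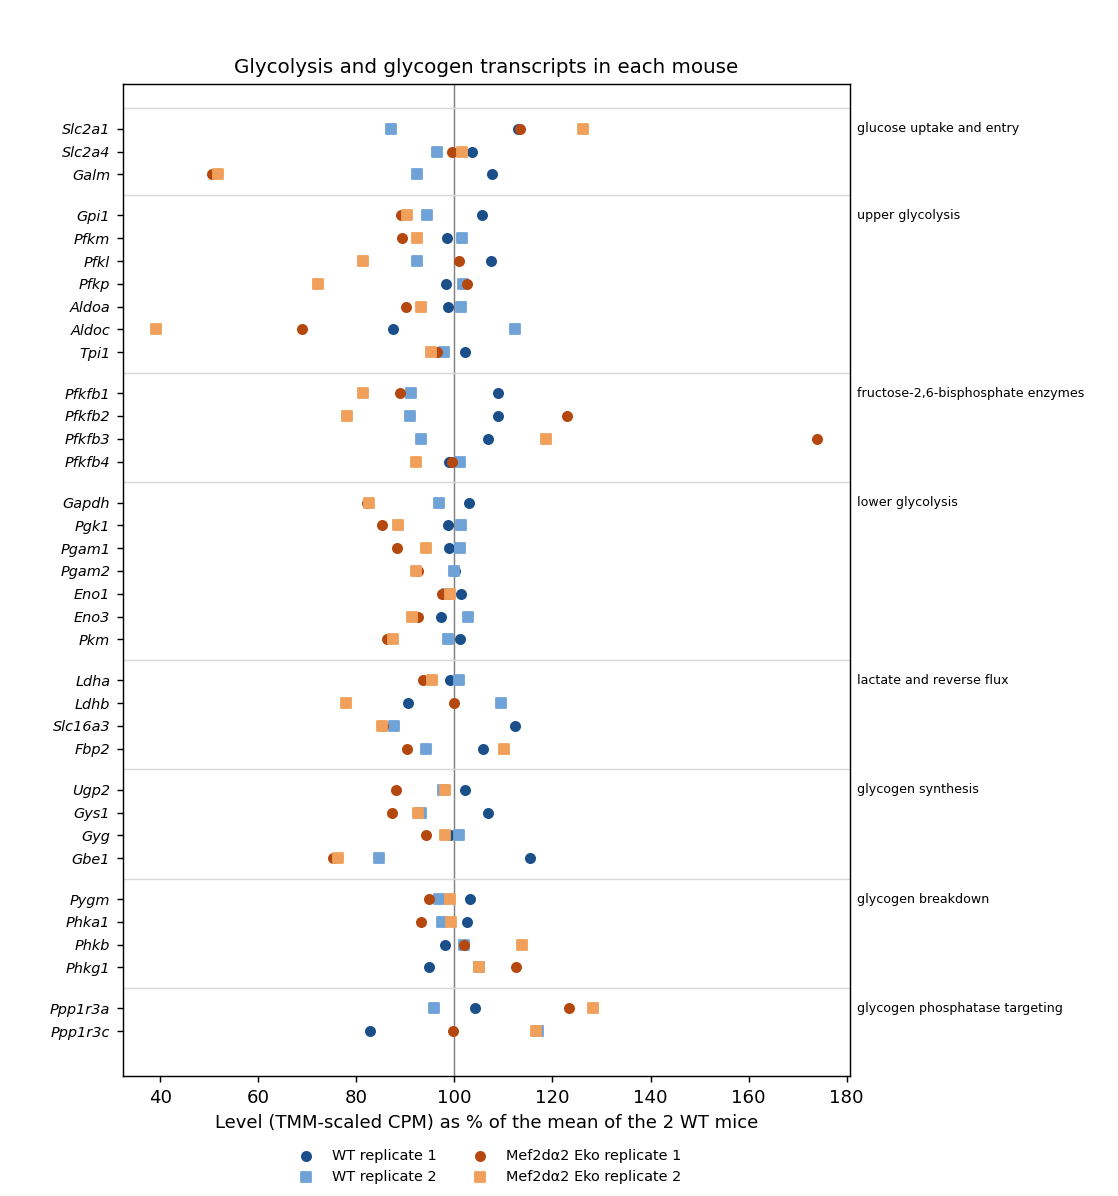
Level of each of the 35 transcripts in each of the 4 mice, as a percentage of the mean of the 2 WT mice (horizontal axis), with the genes in rows grouped by role. Galm stands at 51.2% of the WT mean in Eko mice, Pfkfb3 at 146% with its 2 Eko mice far apart, and most other genes lie within a narrow band just below the WT mean.

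Together the 35 genes accounted for 4.03% and 4.08% of each WT library and for 3.73% and 3.71% of each Eko library. Their summed level was 40718 and 40199 CPM in WT and 36876 and 37708 CPM in Eko mice, which is 92.2% of the WT sum. By role, the summed level in Eko mice came to 86.4% of WT for lower glycolysis, 91.8% for upper glycolysis, 92.1% for glycogen synthesis and 93.1% for lactate and reverse flux. It was 98.0% for glycogen breakdown, 100.3% for glucose uptake and entry, 118% for the subunits that bring phosphatase to glycogen and 127% for the enzymes of fructose 2,6-bisphosphate. Such sums follow their most abundant genes, Gapdh and Aldoa in the glycolytic groups and Pfkfb3 in the last group, whose value was 107% without Eko replicate 1 and 147% without Eko replicate 2.

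**Figure D2:**
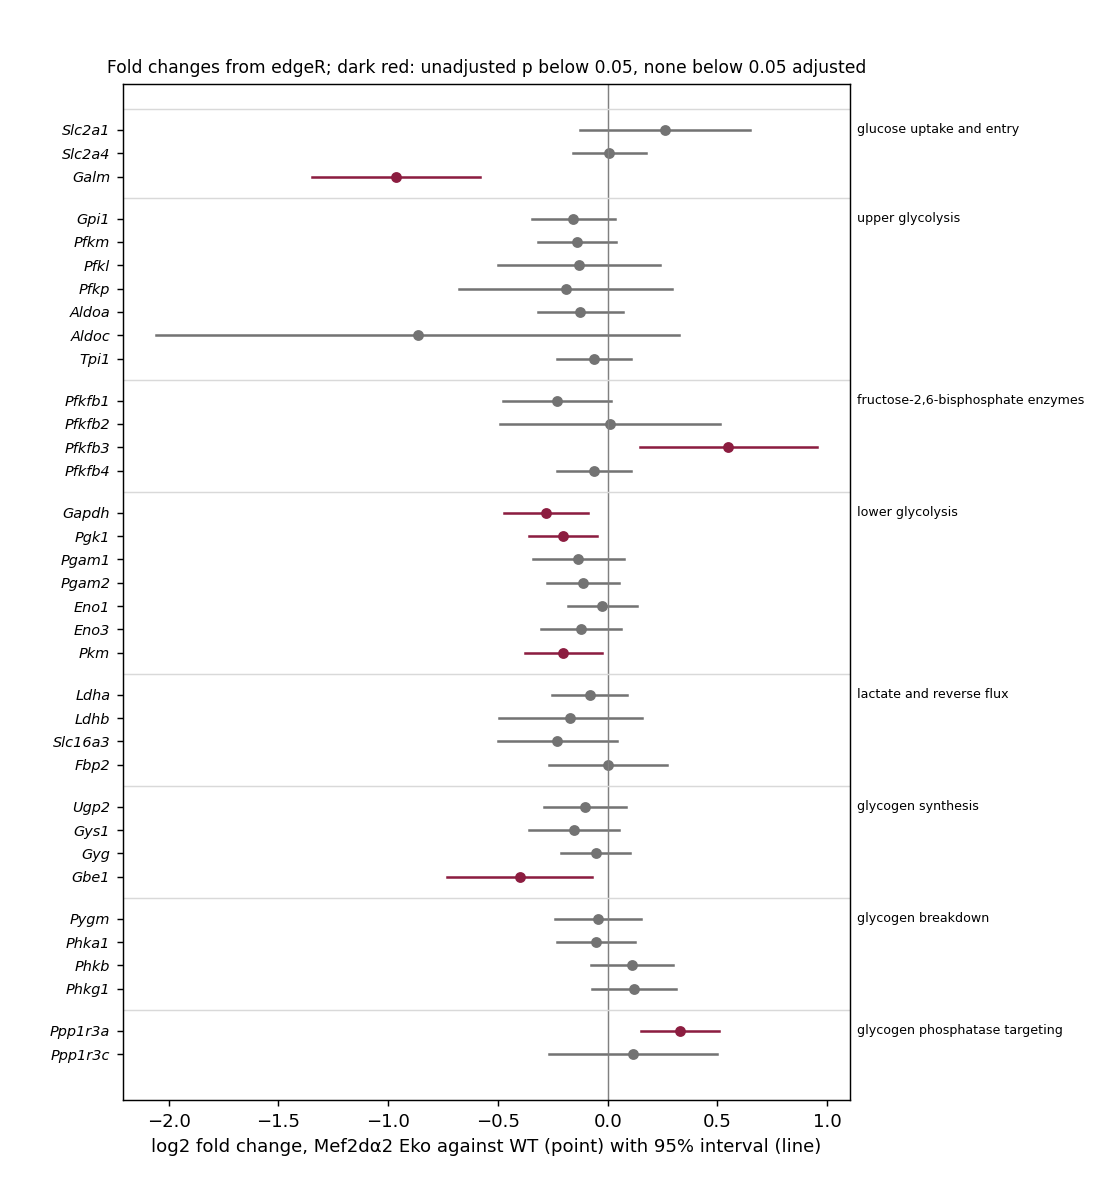
Log2 fold change of each gene in Eko against WT mice from edgeR (points) with its 95% interval (lines), grouped by role, where dark red marks the 7 genes with an unadjusted p below 0.05. The intervals of 28 genes include 0, and no gene passed the adjusted threshold.

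Because the deletion alters a DNA-binding factor, the promoters of the genes were searched for the MEF2 consensus, a palindromic AT-rich motif of 10 bases, and for ACGTG, the core of the site of hypoxia-inducible factors and part of the E-box. Promoters were RefSeq windows on GRCm38.p6 from 250 bases before to 50 after each transcription start, and both strands were searched. Windows were found for 33 of the 35 genes, all but Galm and Slc2a4. The MEF2 consensus stood in the windows of 3 of the 33 genes (9.09%), compared with 3.70% of the 27025 genes with a window. ACGTG stood in those of 17 (51.5%), compared with 21.8%. A gene with several windows is more likely to hold a match, and the 33 genes had 50 windows. Counted by window, the MEF2 consensus stood in 3 of these 50 and in 3.19% of all 32851. ACGTG stood in 21 of the 50 and in 19.6% of all. The 3 genes with the MEF2 consensus were Ppp1r3a, Pgam2 and Pfkfb1, so of the 7 genes with an unadjusted p below 0.05 only Ppp1r3a had a match, Galm having no window. The 250 bases before the start are shown for Ppp1r3a and Pgam2, whose windows overlap no annotated exon there, with the match in capitals and read 5′ to 3′ on the strand of the gene. The window of Ppp1r3a is chr6:14755275-14755524 and that of Pgam2 is chr11:5803797-5804046, both on the minus strand.
Ppp1r3a: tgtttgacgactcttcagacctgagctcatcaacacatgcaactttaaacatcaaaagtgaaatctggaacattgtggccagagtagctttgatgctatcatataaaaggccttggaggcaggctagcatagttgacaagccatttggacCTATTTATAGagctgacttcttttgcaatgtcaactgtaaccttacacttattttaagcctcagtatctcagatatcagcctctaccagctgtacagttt
Pgam2: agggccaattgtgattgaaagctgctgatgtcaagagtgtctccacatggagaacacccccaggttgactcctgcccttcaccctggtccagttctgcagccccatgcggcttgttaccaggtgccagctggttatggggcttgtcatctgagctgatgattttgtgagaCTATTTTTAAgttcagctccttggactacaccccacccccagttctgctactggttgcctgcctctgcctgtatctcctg
The match began 100 bases before the start of Ppp1r3a and 80 bases before that of Pgam2. In Pfkfb1 it read TTAATATTAG and began 113 bases before an internal start, in a window that overlaps annotated exons and is not shown. These 3 genes did not share a direction, with log2 fold changes of 0.33 for Ppp1r3a, -0.11 for Pgam2 and -0.23 for Pfkfb1. A match is a description of the letters and not a site of binding.

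Glucose uptake was represented by the transporters Slc2a4 and Slc2a1 and by Galm. Slc2a4 encodes GLUT4, the insulin-responsive transporter of muscle. Its level was 414 and 386 CPM in the WT mice and 398 and 406 CPM in the Eko mice, so the genotypes overlapped. The log2 fold change was 0.01 with a 95% interval of -0.16 to 0.17 (edgeR adjusted p = 0.980). Slc2a1, which encodes the basal transporter GLUT1, was scarce at 3.95 ± 0.719 CPM in WT and 4.73 ± 0.354 CPM in Eko mice (SD, n = 2 mice each). Both Eko mice were above both WT mice, by 0.26 on the log2 scale (interval -0.13 to 0.65, adjusted p = 0.586).

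Galm had the smallest p and the largest fold difference of the 35 genes. It encodes galactose mutarotase, which interconverts the α and β forms of galactose and glucose, and lies on chr17:80127471-80185101 on the plus strand (GRCm38). WT replicates 1 and 2 held 309 and 282 counts (4.07 and 3.49 CPM), and Eko replicates 1 and 2 held 165 and 140 (1.91 and 1.96 CPM). Both Eko mice were thus close to each other and well below both WT mice, at 51.2% of the WT mean. On the log2 scale the difference was -0.96 (standard error 0.16, interval -1.35 to -0.58), with an edgeR p of 0.000574 before and 0.0881 after adjustment, which missed the threshold. Galm passed it with DESeq2 (adjusted p = 0.00424), with edgeR's likelihood ratio test (0.000639) and with no filter on low counts (3.41e-05). A block for the replicate number gave 0.0437, and 0.0407 with the GC trend removed as well. Galm missed it under RLE (0.0891) and upper-quartile scaling (0.0924) and with limma-voom (0.111). It also missed it under a minimum of 1 CPM in 2 libraries (0.103) and with the GC trend alone removed (0.0946). With a mouse left out its log2 fold change lay between -1.06 and -0.85. The gene was among the scarcest of the list, and in whole muscle a lower level can come from less RNA per cell or from fewer cells of a type, which cannot be told apart.

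**Figure D3:**
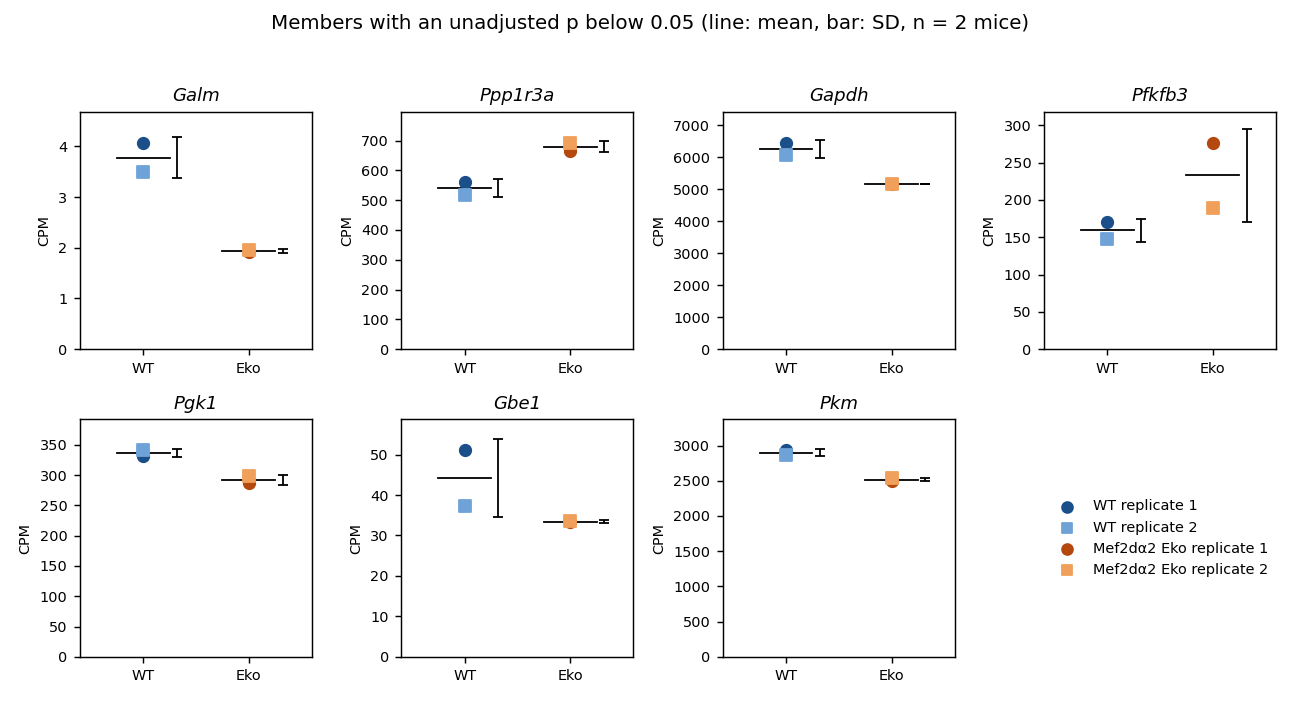
Level in CPM in each mouse (points) with the mean (long line) and SD (bar) of each genotype for the 7 genes with an unadjusted p below 0.05, on axes that start at 0. The Eko mice lie below the WT mice in Galm, Gapdh, Pgk1, Gbe1 and Pkm and above them in Ppp1r3a and Pfkfb3, where Eko replicate 1 reaches 277 CPM and Eko replicate 2 189 CPM.

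In upper glycolysis, glucose 6-phosphate is turned into fructose phosphates and split into the trioses. The genes of this stretch that muscle expresses strongly had slightly lower levels in Eko mice, and none passed the threshold. Gpi1, the isomerase, was at 571 ± 45.5 CPM in WT and 513 ± 5.23 CPM in Eko mice (log2 fold change -0.16). Pfkm, the muscle phosphofructokinase that commits sugar to glycolysis, was at 2270 and 2339 CPM in WT and 2056 and 2128 CPM in Eko mice. Its log2 fold change was -0.14 with an interval of -0.32 to 0.04 (adjusted p = 0.527). Aldoa, the muscle aldolase and the gene of the list with the most transcript per length, was at 9907 and 10174 CPM in WT and 9048 and 9362 CPM in Eko mice. The difference of -0.13 was similar in size (interval -0.32 to 0.07, adjusted p = 0.607). Tpi1, which interconverts the trioses, was nearly level, with a log2 fold change of -0.06 (interval -0.23 to 0.11).

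The forms of these enzymes used in other tissues were scarce. Pfkl, the liver form of phosphofructokinase, was between 4.15 and 5.50 CPM and Pfkp, the platelet form, between 2.00 and 2.84 CPM, and both overlapped between genotypes. Aldoc, the brain aldolase, held 19 and 26 counts in the WT libraries against 17 and 8 in the Eko libraries. The genotypes did not overlap, but the interval of its log2 fold change of -0.87 ran from -2.06 to 0.33.

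The bifunctional enzymes encoded by Pfkfb1 to Pfkfb4 make and remove fructose 2,6-bisphosphate, the strongest activator of phosphofructokinase. Pfkfb3 had the most transcript per length of them and encodes a form with high kinase activity. It lies on chr2:11471433-11554077 on the minus strand. The level was 170 and 148 CPM in the WT mice and 277 and 189 CPM in the Eko mice. Both Eko mice were above both WT mice, but Eko replicate 2 was nearer to WT replicate 1 than to the other Eko mouse. The log2 fold change was 0.55 (standard error 0.17, interval 0.15 to 0.95, edgeR adjusted p = 0.301). The value was decided by Eko replicate 1: without it the log2 fold change was 0.26 (adjusted p = 0.409), and without Eko replicate 2 it was 0.80 (adjusted p = 0.00418).

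Pfkfb3 shares its locus with Gm10851, an antisense gene on the other strand whose exons do not overlap those of Pfkfb3. Gm10851 held 132 and 128 counts in the WT libraries against 41 and 32 in the Eko libraries, and its log2 fold change of -1.84 passed the threshold (edgeR adjusted p = 0.0474), where 0.310% of all genes were called lower. The sign was thus opposite to that of Pfkfb3. Whether the counting used strand is not given in the sources used here.

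The remaining genes of this enzyme family showed no call. Pfkfb1, named for liver and muscle, was at 28.9 and 24.2 CPM in WT and 23.6 and 21.6 CPM in Eko mice (log2 fold change -0.23, interval -0.48 to 0.02, adjusted p = 0.459). Pfkfb2, the heart form, ranged from 6.46 to 10.2 CPM with both extremes in Eko mice, and its log2 fold change of 0.01 had no stable sign. Pfkfb4 was at 55.1 ± 0.852 CPM in WT and 52.7 ± 2.86 CPM in Eko mice (log2 fold change -0.06).

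Lower glycolysis, from the trioses to pyruvate, held 3 of the 7 genes with an unadjusted p below 0.05. All 7 genes of the stretch had a negative log2 fold change, and in 6 of them the genotypes did not overlap, but none was called. For comparison, 51.3% of all genes had a negative log2 fold change, and 23.0% did not overlap with lower levels in Eko mice. At an unadjusted p below 0.05, 6.41% were lower. With each library's trend with GC content removed, the log2 fold change of Eno1 turned to 0.05. Those of the other genes were -0.22 for Gapdh, -0.21 for Pgk1, -0.13 for Pkm, -0.11 for Pgam1, -0.08 for Eno3 and -0.05 for Pgam2. Gapdh, the dehydrogenase that makes NADH and a gene often used to normalize other measurements, lies on chr6:125161715-125166467 on the minus strand. Its level was 6455 and 6071 CPM in WT and 5152 and 5168 CPM in Eko mice. The Eko mice were almost identical and stood at 82.4% of the WT mean, a log2 difference of -0.28 (standard error 0.08, interval -0.47 to -0.09), with an adjusted p of 0.279 in edgeR and of 0.0201 in DESeq2.

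Pgk1 and Pkm encode the kinases that yield ATP in this stretch. Pgk1, phosphoglycerate kinase, lies on chrX:106187100-106203699 on the plus strand and was at 332 and 341 CPM in WT and 286 and 298 CPM in Eko mice. Pkm, pyruvate kinase, lies on chr9:59656368-59679375 on the plus strand and was at 2931 and 2860 CPM in WT and 2498 and 2535 CPM in Eko mice. Both genes were at 86.9% of the WT mean, each with a log2 fold change of -0.20 and a standard error of 0.07, and the mice of a genotype lay close together. The adjusted p was 0.324 for Pgk1 and 0.369 for Pkm by edgeR.

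The muscle forms of the steps between them differed less. Pgam2, the muscle phosphoglycerate mutase, was at 1342 and 1341 CPM in WT and 1242 and 1237 CPM in Eko mice, a log2 fold change of -0.11 (interval -0.28 to 0.05, adjusted p = 0.580). Eno3, the muscle enolase, was at 2603 and 2746 CPM in WT and 2475 and 2441 CPM in Eko mice, a log2 fold change of -0.12 (interval -0.30 to 0.06, adjusted p = 0.586). The widespread forms were Pgam1 at -0.13 and Eno1 at -0.02 on the same scale. Pgam1 has processed pseudogenes in the table with up to 18.3% of its counts, so part of its reads could have been divided among them.

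Lactate is made from pyruvate by lactate dehydrogenase and leaves fast fibres through the transporter MCT4. Ldha, the form that favours lactate, was at 1855 ± 26.2 CPM in WT and 1752 ± 25.3 CPM in Eko mice (log2 fold change -0.08, interval -0.25 to 0.09). Ldhb, the form of oxidative tissue, ranged from 67.8 to 95.5 CPM with the genotypes overlapping (log2 fold change -0.17). Slc16a3, the gene of MCT4, was at 329 and 257 CPM in WT and at 250 CPM in both Eko mice. WT replicate 2 was close to the Eko mice, and the log2 fold change of -0.23 did not pass the threshold (adjusted p = 0.4998). Fbp2, the muscle fructose bisphosphatase that runs the phosphofructokinase step in reverse, was at 22.8 CPM in both genotypes, with an interval of -0.27 to 0.27.

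Glycogen synthesis starts from UDP-glucose, made by Ugp2, on a primer made by glycogenin (Gyg), which glycogen synthase (Gys1) extends and the branching enzyme (Gbe1) branches. Gbe1 lies on chr16:70313949-70569716 on the plus strand and was at 51.0 and 37.3 CPM in WT and 33.2 and 33.7 CPM in Eko mice. The WT mice were far apart, and WT replicate 2 was nearer to the Eko mice than to the other WT mouse. The log2 fold change was -0.40 (standard error 0.14, interval -0.73 to -0.07, edgeR adjusted p = 0.347). It was -0.16 without WT replicate 1 (adjusted p = 0.620) and -0.60 without WT replicate 2 (adjusted p = 0.0106), so the WT mice decided its size.

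The more abundant genes of glycogen synthesis differed little. Gys1 was at 468 and 408 CPM in WT and 382 and 405 CPM in Eko mice, with a log2 fold change of -0.15 (interval -0.36 to 0.05). Gyg, at 288 ± 3.73 CPM in WT, had a log2 fold change of -0.06, and Ugp2, at 462 ± 14.7 CPM in WT, one of -0.10 with the genotypes overlapping.

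Glycogen breakdown was the group in which every gene overlapped between genotypes. Pygm, the muscle glycogen phosphorylase that frees glucose 1-phosphate, was at 6079 and 5714 CPM in WT and 5595 and 5838 CPM in Eko mice. Its log2 fold change was -0.04 with an interval of -0.24 to 0.15 (adjusted p = 0.878). The subunits of phosphorylase kinase, which switches the phosphorylase on, gave log2 fold changes of -0.06 for the muscle α subunit Phka1, 0.11 for the β subunit Phkb and 0.12 for the muscle catalytic subunit Phkg1. The intervals of these 4 genes all lay within -0.24 and 0.31.

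Protein phosphatase 1 is brought to glycogen by targeting subunits, where it activates glycogen synthase and switches phosphorylase off. Ppp1r3a encodes the main subunit of striated muscle and lies on chr6:14713977-14755274 on the minus strand, next to the promoter printed above. It was at 562 and 518 CPM in WT and 666 and 693 CPM in Eko mice. Both Eko mice were above both WT mice by more than the mice of either genotype differed, at 126% of the WT mean, a log2 difference of 0.33 (standard error 0.07, interval 0.15 to 0.51), with an edgeR p of 0.00319 before and 0.186 after adjustment, and 0.00377 after adjustment in DESeq2. Left-out mice moved it between 0.29 and 0.39. With each library's trend with GC content removed, it was 0.23 (edgeR adjusted p = 0.357). The GC content of its longest coding transcript was 36.7%, where the median of the 35 genes was 52.8%. Ppp1r3c, a subunit found in many tissues, was at 330 and 467 CPM in WT and 398 and 465 CPM in Eko mice, so the spread between the WT mice was larger than the difference of 0.11.

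Levels of different genes were compared per kilobase of the longest coding transcript. Within WT mice the order was led by Aldoa at 6482 ± 122 CPM per kb, Gapdh at 4410 ± 191 and Pygm at 2052 ± 89.8, followed by Eno3 at 1710 ± 64.5 and Pgam2 at 1597 ± 1.31. Pkm, Ldha, Pfkm and Tpi1 followed between 1191 and 760 CPM per kb. Phkg1, Slc2a4 and Phka1, between 166 and 157 CPM per kb, were within their spread of each other. The scarcest were Slc2a1 at 1.21, Pfkp at 0.669 and Aldoc at 0.103 CPM per kb.

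**Figure D4:**
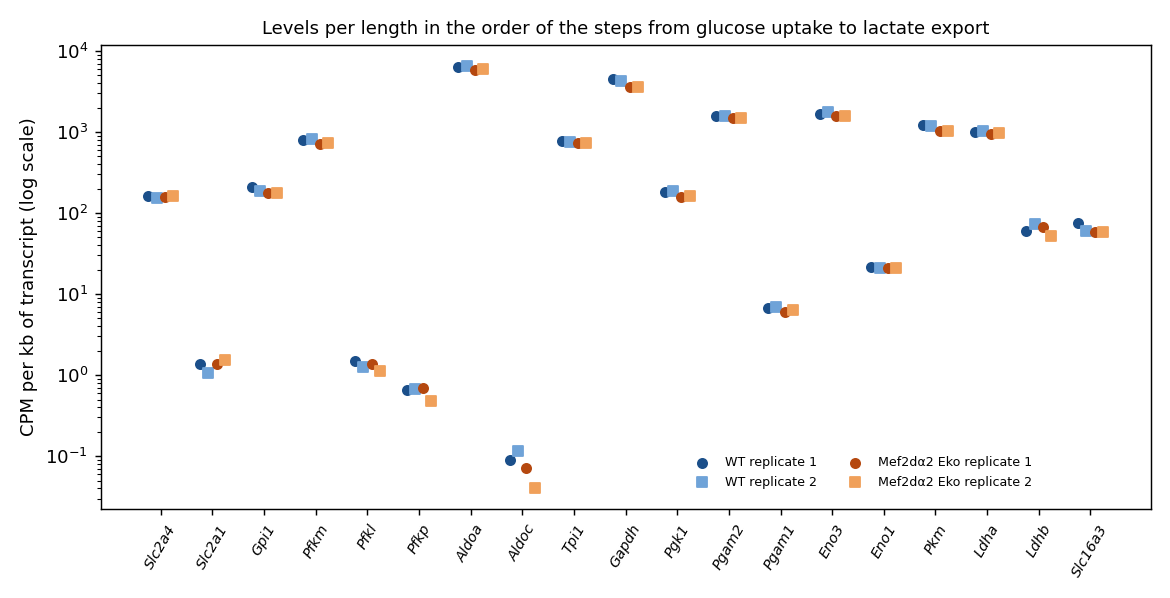
Level per kilobase of transcript (vertical axis, log scale) of the genes from glucose uptake to lactate export, in pathway order, in each of the 4 mice. The muscle forms Pfkm, Aldoa, Pgam2, Eno3 and Ldha stand far above the other forms of the same step in all 4 mice, and the points of the genotypes nearly overlie on this scale for all plotted genes but Aldoc.

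At each step with several forms, the muscle form supplied nearly all of the transcript per length. In WT mice Pfkm made up 99.7% of the phosphofructokinase transcripts, Pgam2 99.6% of the mutase, Eno3 98.8% of the enolase and Slc2a4 99.2% of the transcripts of the 2 transporters. The shares in Eko mice were 99.7%, 99.6%, 98.7% and 99.1%. Ldha made up 93.9% ± 0.695 of lactate dehydrogenase in WT and 94.2% ± 1.04 in Eko mice (SD, n = 2 mice each), a difference smaller than the spread between mice.

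Other genes of the same pathways were read from a wider list of 49 genes, of which 42 were tested. Of these, 2 passed the threshold, both lower in Eko mice, where 0.310% of all genes were called lower. Slc16a1 encodes MCT1, a carrier of lactate and ketone bodies, and was at 42.3 and 43.1 CPM in WT and 30.2 and 30.9 CPM in Eko mice. The genotypes were far apart compared with the spread within them, with a log2 fold change of -0.48 (standard error 0.07, edgeR adjusted p = 0.0484). The call of Slc16a1 was near the threshold and was lost under RLE normalization (adjusted p = 0.0527), with limma-voom (0.05004), under a minimum of 1 CPM in 2 libraries (0.0565), and without Eko replicate 1 (0.0703) or Eko replicate 2 (0.0706).

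The median log2 fold change of the 42 genes was 0.03, and the genotypes did not overlap for 12 genes with lower (28.6%) and 11 with higher (26.2%) levels in Eko mice, near the shares over all genes of 23.0% and 20.8%. The other genes at the ends of the range were Gys2, the liver glycogen synthase, at -0.98 with under 0.4 CPM in each mouse, Ppp1r3d, a phosphatase targeting subunit, at 0.64 (adjusted p = 0.403), and the phosphoglucomutase gene listed as Pgm1 at 0.31. Stbd1, a glycogen-binding protein chosen after its values were seen, was at 63.5 and 49.6 CPM in WT and 34.8 and 36.7 CPM in Eko mice. Its log2 fold change was -0.66, with an adjusted p of 0.115 in edgeR and of 0.00012 in DESeq2. Hk2, the main hexokinase of muscle, was at 484 ± 26.2 CPM in WT and 472 ± 18.2 CPM in Eko mice.

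Markers of fibre types and of other cells were read beside these values, and none of the 48 markers was called or at 0. The 7 general muscle markers summed to 69313 and 74048 CPM in WT and 71638 and 74729 CPM in Eko mice. The 4 markers of the fast 2B fibres, the most glycolytic type, summed to 74251 and 75343 CPM and to 77149 and 81459 CPM. Such sums follow their most abundant genes. Of the muscle markers, Mb was at 70.8% of the WT mean in Eko mice, Acta1 at 90.6% and Ttn at 117%, with the others between 98.2% and 108%. The 2B markers ran from 105% for Myh4 to 128% for Mylk2. Both Eko mice were below both WT mice for Myh1 of 2X fibres (4967 and 3984 against 3476 and 3121 CPM, log2 fold change -0.44, adjusted p = 0.261) and Myh2 of 2A fibres (1576 and 1709 against 1264 and 1041 CPM, log2 fold change -0.51, adjusted p = 0.161). The 6 slow fibre markers summed to 231 and 593 CPM in WT and to 421 and 250 CPM in Eko mice. The 7 adipocyte markers summed to 168 and 100 CPM in WT and 95.3 and 71.7 CPM in Eko mice, and the 5 macrophage markers to 24.4 and 19.3 CPM and 19.1 and 13.9 CPM. The 4 Schwann cell markers summed to 23.2 and 25.8 CPM in WT and 28.6 and 34.7 CPM in Eko mice, while the endothelial, fibroblast and erythroid sums overlapped. The part of these markers in the differences of Galm, Gapdh and Slc16a1 was not tested.

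Several of the 35 genes share their position with another gene on the other strand, so their counts are less certain. Exons of Aldoa overlap Fam57b, and those of Gapdh overlap Iffo1, of Gpi1 Gm26762, of Gys1 Ruvbl2, of Pfkfb1 Apex2, of Pfkfb2 Yod1, of Pfkm Senp1, of Pfkp Pitrm1, of Tpi1 Spsb2, of Phkg1 Sumf2, of Slc2a1 Gm12868 and of Ugp2 Gm12043. Iffo1, beside Gapdh, was at 7.75 ± 1.43 CPM in WT and 8.20 ± 1.84 CPM in Eko mice, far below the level of Gapdh. Yod1, beside Pfkfb2, was at 4.46 ± 0.476 CPM in WT and 5.82 ± 0.651 CPM in Eko mice, where Pfkfb2 was at 8.27 ± 1.05 CPM and 8.32 ± 2.63 CPM. On the same strand, Pkm overlaps Gm49759, Pfkm overlaps Gm26513, Pfkfb2 overlaps Gm29427 and Gm37163, Pfkfb3 overlaps Gm37975, Phkb overlaps Hm629797, and Phkg1 overlaps Chchd2 and Gm42790. Further overlaps outside the exons were those of Aldoa with Gm44856, Phkb with Gm16167, Phkg1 with Zbed5, Slc2a1 with Gm12867 and Mir1957a, and Ugp2 with Mir1933. Galm, Gbe1, Pgk1 and Ppp1r3a overlap no other gene in the annotation used.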

How the data were processed

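Libraries of quadriceps polyA RNA, 1 per mouse, came from 2 WT and 2 Eko males and a stranded kit. According to the methods and the submitters' processing notes, the authors quality-checked reads with FastQC, mapped them to mm10 by STAR 2.6.1a and let RSEM estimate gene-level expected counts against an Ensembl gene set for GRCm38. The expected counts were deposited with no scaling between libraries. A strand setting for counting is not given in the sources used here. RSEM divides reads that fit several genes with a probability model, so near-identical genes can trade counts. All deposited values were whole, so rounding here changed 0 of them, and a rounding step before deposit is not described. Genotypes and replicate numbers came from the labels.

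The genotypes were compared in R 4.3.3. The main test was glmQLFTest of edgeR 4.0.16 (the quasi-likelihood test) with TMM scaling and a model of genotype alone. The default filter of edgeR left 16120 of 24621 rows with any count, and Benjamini-Hochberg adjustment ran over all of those at 0.05. A prior count of 0.125 enters each log2 fold change. Intervals are 95%. Littermates of both genotypes were used, but which mice shared a litter or an extraction day is not given in the sources used here. The p-values set a difference against the spread within the genotypes of these 4 mice, which edgeR shares among genes. Positions and transcript lengths are from GENCODE M21 on GRCm38. Promoters are from RefSeq on GRCm38.p6.

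All 35 genes are given with values, and of the wider list those past the threshold and the 2 highest and 2 lowest log2 fold changes, except 1 gene that is not reported here. The genes, lists and markers were chosen with earlier results of these data known. The alternatives replaced edgeR with DESeq2 1.42.0, with limma-voom (limma 3.58.1) or with the likelihood ratio test, TMM with RLE or upper-quartile scaling, and the filter with none or with a minimum of 1 CPM in 2 libraries. Others added a replicate block, a GC correction or both, or left out each mouse in turn. The tests were checked on simulated data.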

Additional observations from a re-analysis of the deposited data

How the results depend on the processing

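The number of genes called among all tested, 67, was 325 with DESeq2, 799 with no filter on low counts, 23 with at least 1 CPM in 2 libraries, 312 with edgeR's likelihood ratio test, 186 with the replicate block, 40 with the GC correction and 172 with the replicate block and the GC correction together, and 99 to 299 with a mouse left out. Of the 35 genes, the number called lower, 0 in the report, was 2 with DESeq2 (Galm, Gapdh), 3 with no filter (Galm, Gapdh, Gbe1), 1 (Galm) with the likelihood ratio test, with the replicate block and with the block and GC correction together, and 0 to 2 with a mouse left out (Galm and Gbe1 without WT replicate 2). The number called higher, also 0, was 1 with DESeq2 (Ppp1r3a), 2 with no filter (Pfkfb3, Ppp1r3a) and 0 to 1 with a mouse left out. The call of Galm in the replicate block was near the threshold (adjusted p = 0.0437). The replicate numbers name different mice, and the deviations of same-numbered mice from their genotype means correlated at r = 0.190 over 12133 genes, so the block is not a known pairing. Of the wider list, 2 were called in the report, 1 under RLE normalization, limma-voom and the minimum of 1 CPM, 4 with no filter, and 2 to 4 with a mouse left out.

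The median log2 fold change of the 35 genes was -0.0685 with the GC correction, -0.0698 with the replicate block as well, and -0.102 to -0.0718 with a mouse left out. Across all genes the log2 fold change correlated with GC content at rho = -0.223, a description over 15640 genes of the same libraries, and the median GC content was 52.8% for the 35 genes and 49.9% for all genes. Of 489 log2 fold changes of the 35 genes under the 14 alternatives, 453 kept their sign and their side of the threshold, 14 kept their sign and passed it, and 22, of 9 genes, turned their sign, all of them far from the threshold. Pfkfb2 was -0.0166 in the replicate block, -0.0269 with the GC correction, -0.0571 with both and -0.342 to 0.299 with a mouse left out. Eno1 was 0.0457 with the GC correction, 0.0456 with the block as well, and -0.0360 to 0.00192 with a mouse left out. Fbp2 was -0.000727 under upper-quartile normalization, -0.00099 with the minimum of 1 CPM, -0.00535 with limma-voom, -0.00108 in the replicate block and -0.146 to 0.154 with a mouse left out. With a mouse left out, Slc2a4 ran from -0.0276 to 0.0604, Pfkl from -0.284 to 0.0153, Pfkp from -0.458 to 0.0350, Pygm from -0.0758 to 0.00130, Phka1 from -0.102 to 0.00427 and Ppp1r3c from -0.113 to 0.40. Aldoc fell under the minimum of 1 CPM and was not tested there. Genes under about 5 CPM, such as Galm, Slc2a1 and Aldoc, have the widest counting error.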
